A study of Mus musculus with 43 samples.

Results

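Promoter regions were taken from each of the study's chromatin accessibility tables as autosomal regions narrower than 3000 bases with an edge no more than 1000 bases from a gene start, or spanning one. The gene start was the outermost 5′ end of the gene in the RNA count table. The female table held 20989 such regions among 165184 (12.7%), and the male table held 16808 among 192919 (8.71%). They lay at the starts of 18047 genes in the female table and 17642 in the male table, out of 49158 autosomal genes. A gene start spanned by a region counted as a distance of 0, which brought in 296 female and 744 male regions whose edges were both farther away than 1000 bases. Of the female regions 10914 (52.0%) spanned a gene start, and of the male regions 10966 (65.2%) did.

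The study compared enriched with standard housing in wildtype Swiss Webster mice. Enriched housing (EE) was a larger cage with a running wheel, a tube and toys that were exchanged. Standard housing (SH) was the usual cage. All mice were weaned at day 25 after birth and studied at 2 months of age. Nuclei of the frontal cortex were fixed with paraformaldehyde and sorted for NeuN, a protein of neuronal nuclei, so the libraries pool all NeuN+ neurons. The female ATAC groups held 3 EE and 3 SH libraries and the male ATAC groups 6 EE and 7 SH. Nuclear RNA was sequenced in 6 EE and 6 SH libraries of each sex. The labels do not say that replicates came from separate animals, so p-values measure the spread between these libraries, which may be in part technical. Each sex had its own ATAC table with its own set of regions, so sex and anything else that differed between the tables cannot be told apart.

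A promoter is the DNA around a transcription start where general transcription factors and RNA polymerase II assemble. In ATAC-seq a transposase cuts into DNA that is not wrapped in nucleosomes, and active promoters are among the most accessible stretches of the genome. Most promoters of housekeeping genes and many of neuronal genes lie in CpG islands, stretches rich in unmethylated CpG dinucleotides, and few of those carry a TATA box. In neurons, activity-dependent promoters such as that of Fos also hold cyclic AMP response elements, which the factor CREB binds.

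The following RefSeq sequences, on GRCm38.p6 (mm10), show the range of promoters that the rule did and did not take up. Each runs over the 200 bases before the RefSeq start, 5′ to 3′ on the gene's strand. In the first 5 the CpG dinucleotides are in capitals. Lss encodes lanosterol synthase, Arntl the clock activator BMAL1 and Idi1 an isomerase of sterol synthesis. Mog encodes a myelin glycoprotein of oligodendrocytes and P2ry12 a purine receptor of microglia.
Lss: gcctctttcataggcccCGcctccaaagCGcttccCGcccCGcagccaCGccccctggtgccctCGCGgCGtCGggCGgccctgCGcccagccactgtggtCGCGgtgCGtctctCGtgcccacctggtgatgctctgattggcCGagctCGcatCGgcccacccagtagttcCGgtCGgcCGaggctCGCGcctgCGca
Arntl: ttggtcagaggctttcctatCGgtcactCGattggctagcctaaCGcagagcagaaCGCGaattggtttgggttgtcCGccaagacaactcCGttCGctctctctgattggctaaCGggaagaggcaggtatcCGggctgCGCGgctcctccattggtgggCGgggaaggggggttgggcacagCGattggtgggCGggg
Idi1: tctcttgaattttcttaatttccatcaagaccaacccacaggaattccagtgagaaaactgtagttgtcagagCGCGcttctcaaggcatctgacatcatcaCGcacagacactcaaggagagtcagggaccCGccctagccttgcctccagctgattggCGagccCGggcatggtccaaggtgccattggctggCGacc
Mog: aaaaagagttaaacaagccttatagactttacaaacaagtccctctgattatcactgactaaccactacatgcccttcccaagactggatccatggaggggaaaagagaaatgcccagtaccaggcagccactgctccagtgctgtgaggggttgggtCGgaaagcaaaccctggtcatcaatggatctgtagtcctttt
P2ry12: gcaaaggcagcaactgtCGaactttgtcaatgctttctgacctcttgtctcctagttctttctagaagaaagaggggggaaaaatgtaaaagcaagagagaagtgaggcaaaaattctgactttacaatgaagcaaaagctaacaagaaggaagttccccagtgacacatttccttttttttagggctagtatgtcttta

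The Lss stretch (chr10:76531405-76531604, plus strand) held 24 CpG, and its promoter region had 29.1 CPM (counts scaled to a common library total) per kb in the female table and 14.7 in the male table. The Arntl stretch (chr7:113207265-113207464, plus strand) held 15 CpG, with 31.2 and 10.1 CPM per kb. Idi1 (chr13:8885406-8885605, plus strand) had only 7 CpG and fell outside the CpG-rich class defined below, yet its promoter region was among the most accessible of both tables, at 42.6 and 22.6 CPM per kb. Mog (chr17:37023399-37023598, minus strand) and P2ry12 (chr3:59262986-59263185, minus strand) each had 1 CpG in the printed stretch and no region of either table at their starts.

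A second set shows motifs that are known in activity-regulated promoters, with the motif in capitals. Fos, an immediate early transcription factor, holds a TATA box (TATAAA). Scg2, a secretory granule protein, and Sst, the neuropeptide somatostatin of a class of interneurons, hold a cyclic AMP response element (TGACGTCA).
Fos: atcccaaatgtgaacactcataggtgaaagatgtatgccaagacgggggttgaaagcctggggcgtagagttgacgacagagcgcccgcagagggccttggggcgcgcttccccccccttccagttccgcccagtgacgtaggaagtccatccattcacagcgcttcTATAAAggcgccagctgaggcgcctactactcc
Scg2: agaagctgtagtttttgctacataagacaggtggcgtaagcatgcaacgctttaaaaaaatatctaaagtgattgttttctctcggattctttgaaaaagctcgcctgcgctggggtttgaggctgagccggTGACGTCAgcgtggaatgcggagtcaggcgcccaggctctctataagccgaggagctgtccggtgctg
Sst: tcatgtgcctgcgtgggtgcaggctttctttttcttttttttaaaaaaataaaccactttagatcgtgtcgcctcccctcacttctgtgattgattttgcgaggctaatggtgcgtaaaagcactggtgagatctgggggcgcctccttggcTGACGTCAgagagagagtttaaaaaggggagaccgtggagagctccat

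The first base of the Fos motif lay at position -33 from the RefSeq start (chr12:85473690-85473889, plus strand), that of Scg2 at -68 (chr1:79440027-79440226, minus strand) and that of Sst at -48 (chr16:23890845-23891044, minus strand). The female promoter regions had 15.8 CPM per kb at Fos and 14.6 at Scg2. In the male table both starts lay in regions of at least 3000 bases, which the rule leaves out. The start of Sst had no region in the female table and a weak promoter region in the male table, at 2.42 CPM per kb, while its nuclear RNA stood at 6.10 and 9.80 CPM per kb of gene.

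ATAC depth was 19.1 to 26.3 M counts per library in the female table and 27.7 to 73.8 M in the male table, and RNA depth was 10.6 to 15.4 M in females and 10.4 to 14.6 M in males. Male regions were wider throughout: the median width of a promoter region was 774 bases in the female table (quartiles 399 and 1319) and 1297 in the male table (766 and 1903), against 415 and 754 for the other autosomal regions under the width limit. As a result the width limit left out 791 broad regions at gene starts in the female table and 3592 in the male table. Of the female promoter regions 95.8% overlapped a region of the male table, and of the male promoter regions 76.6% overlapped a region of the female table. Levels are therefore compared within a table only.

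Promoter regions were the most accessible of the narrow regions, and those that spanned a gene start were the most accessible of these. The median accessibility was 9.34 CPM per kb in the female table (quartiles 6.67 and 14.1) and 4.48 in the male table (3.02 and 7.30). Regions inside genes had medians of 6.91 and 2.87, and intergenic regions 7.87 and 3.41. Summed over all promoter regions, the mean density was 13.6 ± 0.443 CPM per kb (SD, 6 libraries) in the female table and 6.64 ± 0.205 (SD, 13 libraries) in the male table. The spread between libraries was far smaller than the difference from the other narrow classes: regions inside genes had 7.98 ± 0.107 and 3.59 ± 0.0336. All autosomal regions of at least 3000 bases, wherever they lay, had medians of 11.2 and 4.85, above the median of all promoter regions. Of these 1556 female and 9769 male regions, 791 and 3592 were at gene starts, and no separate median was taken for those.

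Accessibility fell off steeply with distance from the gene start. The female median was 12.5 CPM per kb for regions that spanned a start, 8.02 at 1 to 250 bases, 7.29 at 251 to 500 bases and 6.87 at 501 to 1000 bases. The same bins of the male table had 5.87, 3.23, 3.15 and 3.07. Beyond the first 250 bases, promoter regions were thus near the level of regions inside genes. At the edge of the rule, the 914 female members 900 to 1000 bases from a start had a median of 6.70 CPM per kb and the 943 non-members 1001 to 1100 bases away 6.61. The corresponding male values were 3.14 (574 members) and 3.02 (520 non-members). Regions with gene starts on both strands, which divergent gene pairs share, made up 16.6% of the female and 13.9% of the male promoter regions. Their medians were 12.05 and 7.10 CPM per kb, against 8.92 and 4.19 for regions with starts on 1 strand.

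**Figure D1:**
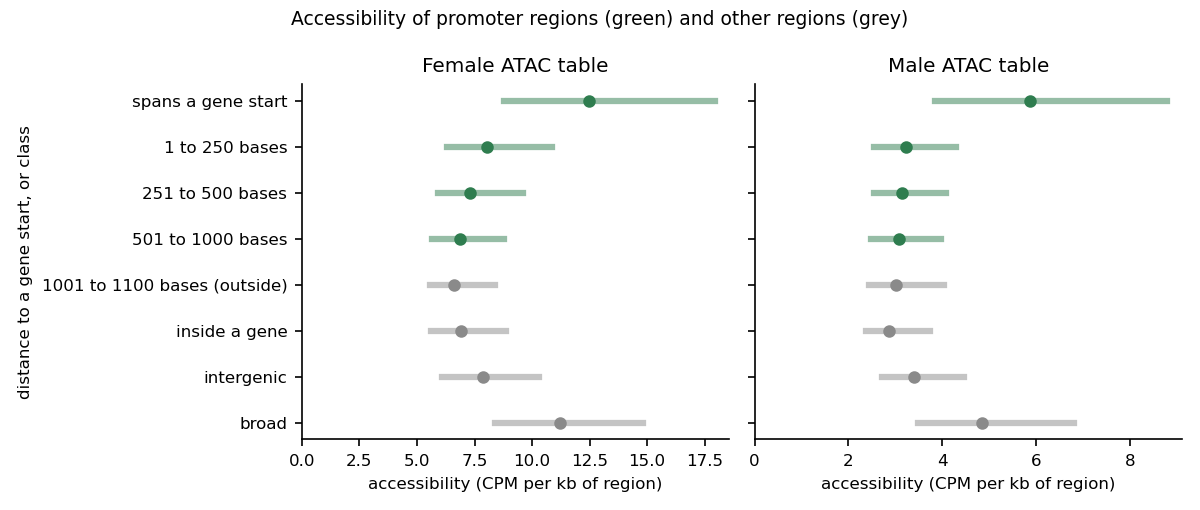
Accessibility of promoter regions by distance to a gene start (green) and of other regions (grey), in CPM per kb of region. Points are medians over regions and bars run between the quartiles. Regions that span a start reached 12.5 CPM per kb in the female and 5.87 in the male table, and the bins farther away lie close to the regions just outside the rule.

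Base composition differed between gene starts with a promoter region and those without. Among 31396 autosomal RefSeq promoter windows (250 bases before to 50 after the start), 9703 (30.9%) were CpG-rich, defined as a GC content of at least 55% and a CpG count of at least 0.6 of that expected from the base composition. A female promoter region overlapped 77.4% of the CpG-rich windows and 18.4% of the remaining windows. The male shares were 63.7% and 18.4%, and a further 26.9% of the CpG-rich windows overlapped only a region of at least 3000 bases. No region of any kind overlapped 11.5% of the CpG-rich windows in the female and 5.10% in the male table, against 73.3% and 66.5% of the remaining windows. Covered windows also differed in level. The median accessibility of the region was 14.7 CPM per kb at CpG-rich and 11.3 at remaining windows in the female table, and 7.63 and 5.44 in the male table.

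Motif matches followed the same division. The letters were searched over the whole 300-base window on both strands, except the TATA box, which was searched on the gene's strand 50 to 11 bases before the start. The GC box GGGCGG, the letters that the factor SP1 recognizes, occurred in 36.0% of all windows, in 64.6% of windows with a female promoter region and in 15.03% of windows with no region. The ETS core CCGGAAG occurred in 9.004% of all windows, in 18.5% of the covered and in 2.72% of the windows with no region. The cyclic AMP response element TGACGTCA stood in 1.83% of all windows, in 3.45% of the covered and in 0.675% of the windows with no region. For the core motif of NRF1, a factor of mitochondrial genes, the shares were 0.968%, 2.23% and 0.159%. The E-box CACGTG, the letters that clock factors and MYC recognize, occurred in 10.4% of covered windows and 4.87% with no region, and the YY1 core AAGATGGC in 4.41% and 1.72%.

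The opposite order was found for the TATA box and the AP-1 site. TATAAA stood in 2.43% of all windows, in 1.01% of windows with a female promoter region and in 3.49% with no region. TGANTCA, the AP-1 letters, stood in 7.84% of all windows, in 4.31% of the covered and in 10.3% of the windows with no region. CCAAT, which NF-Y recognizes, was spread evenly, at 38.0% and 37.2%. For the motifs other than CCAAT the male table gave the same orders with close values, for example 61.7% against 11.9% for the GC box and 1.11% against 3.67% for the TATA box. Several of these motifs are themselves rich in G and C or hold a CpG, and a match is a description of letters, not a bound site.

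A promoter region was more often present where the gene's nuclear RNA was high. Among genes under 0.01 CPM per kb of gene 14.6% had one in the female table, as did 34.2% of those from 0.01 to 0.1, 74.5% from 0.1 to 1, and 83.4% of the 4216 genes at 1 or more. The male shares were 19.5%, 35.6%, 63.1% and 56.2%. The drop at the top of the male table came with the width limit, since 36.6% of those 4137 genes had only a broad region at their start, against 8.42% in the female table. Where a promoter region was present, its median accessibility across the 4 RNA classes was 8.57, 9.31, 13.3 and 13.5 CPM per kb in the female table, and 3.49, 4.07, 7.18 and 7.13 in the male table. The step was thus between the second and the third class, with no further rise above it. Genes with only a broad region are not in these medians. They made up 36.6% of the top class against 18.3% of the third in the male table, and 8.42% against 3.33% in the female table. Across genes the Spearman correlation of RNA level with promoter accessibility was 0.33 in the female and 0.46 in the male table. It describes 18047 and 17642 genes that are not independent and share base composition.

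**Figure D2:**
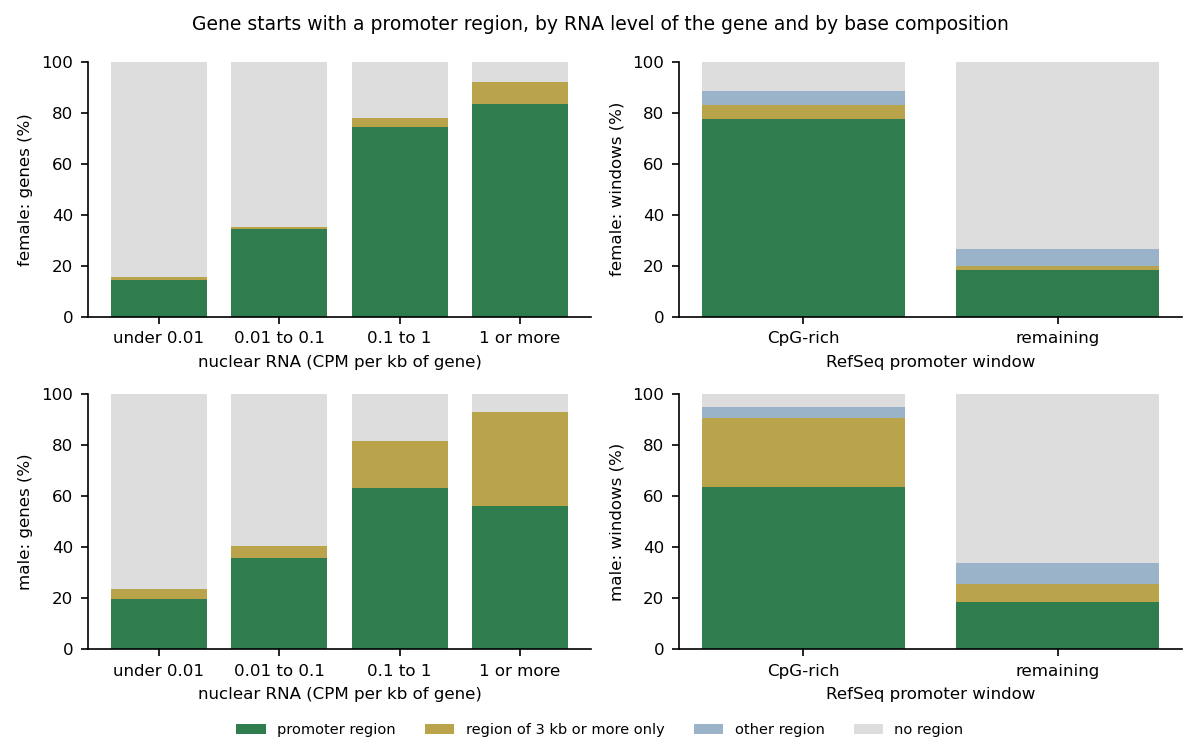
Share of genes with a promoter region by nuclear RNA level (left, % of genes) and share of RefSeq promoter windows overlapped by each kind of region by base composition (right, % of windows), for the female (top) and male (bottom) table. Green is promoter regions and ochre regions of at least 3000 bases only. Female green bars rise from 14.6% to 83.4% of genes and cover 77.4% of CpG-rich against 18.4% of remaining windows.

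Promoters of neuronal markers were nearly all open in these NeuN+ nuclei. Of the general neuron markers 5 of 6 had a female promoter region, as did 5 of 6 excitatory markers, and the other gene of each set had a broad region at its start. Syt1, a calcium sensor of synaptic vesicles, had 27.9 CPM per kb, Slc17a7, the vesicular glutamate transporter of excitatory neurons, 13.5, and Rbfox3, which encodes NeuN, 9.26. Snap25 and Camk2a lay in broad regions. GABAergic markers had promoter regions of low accessibility: Slc32a1, the vesicular GABA transporter, had 7.14 CPM per kb, Gad2, a GABA-synthesizing enzyme, 6.60 and Dlx1, an interneuron transcription factor, 5.02. Their median, 6.79, ranked at the 26.3 percentile of all female promoter regions, against 71.4 for the general neuron markers and 31.6 for the astrocyte markers. The male table did not show this contrast. There 5 of 6 general neuron markers had only a broad region, and the 1 with a promoter region ranked at the 26.4 percentile. The 4 male GABAergic regions had a median at the 23.0 percentile. Gad1 had no region within the distance allowed, although its RefSeq window was covered in both tables, so a gene whose outermost annotated start is remote from its main promoter escapes the rule.

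Promoters of glial and vascular markers had a region in a minority of cases in the female table and more often in the male table. Of the microglial markers 0 of 6 had any female region at the start, and their median nuclear RNA was 0.0526 CPM per kb. A promoter region was found for 3 of 6 astrocyte markers, 1 of 6 oligodendrocyte markers (Mbp, myelin basic protein, at 9.98 CPM per kb), 1 of 3 precursor markers and 1 of 5 vascular markers. Male promoter regions were found for 1 of 6 microglial markers (Csf1r, a growth factor receptor, at 3.42 CPM per kb), 4 of 6 astrocyte, 1 of 6 oligodendrocyte, 1 of 3 precursor and 4 of 5 vascular markers. The male vascular regions were weak, with a median of 2.55 CPM per kb, at the 14.6 percentile. Because the libraries pool nuclei, a smaller share of cells with an open promoter and a less open promoter in each cell cannot be told apart.

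Gene groups differed widely in promoter accessibility. The sterol synthesis genes stood highest of 21 lists in the female table: 20 of 23 had a female promoter region, with a median of 23.6 CPM per kb (93.1 percentile), and the 13 in the male table had 9.58 (86.3 percentile). Fdft1, squalene synthase, had 36.5 CPM per kb in the female table, and Stard4, a cholesterol carrier, 33.5 and 15.3 in the female and male tables. Their nuclear RNA was not high: the median of the list was 0.594 CPM per kb of gene, where the general neuron markers had 3.89. Heat shock and protein folding genes had medians of 19.2 and 10.4 CPM per kb (87.6 and 89.0 percentile), led by Hsf2, a heat shock transcription factor, at 54.7 and 19.0. Clock genes had 15.3 and 8.35, and all 22 had a promoter or a broad region in each table. Respiratory chain genes had 14.5 and 7.66 and cytosolic ribosomal protein genes 14.1 and 7.27.

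Promoters of genes induced by neuronal activity were often wide, as were those of some other lists. Of 22 immediate early genes, 13 had a promoter region and 8 only a broad region in the female table. The male numbers were 3 and 18. The 26 delayed activity-regulated genes showed the same, with 17 and 7 in the female and 4 and 20 in the male table. Of 22 clock genes, 7 had only a broad region in the female and 13 in the male table. In the male table so did 17 of 34 voltage-gated channel genes and 15 of 31 presynaptic genes. Of 62 cytosolic ribosomal protein genes, 2 did in the female and 12 in the male table. Egr1, a zinc finger factor, reached 36.7 CPM per kb in the female table, while Npas4, a neuron-specific activity-induced factor, had 8.17. Arc, a regulator of synaptic receptors, lay in a broad region in both tables. The GABAergic interneuron list stood low, with medians of 6.94 and 3.61 CPM per kb (28.01 and 36.8 percentile). Cartpt, a neuropeptide of a subset of neurons, had the lowest listed value of the upper layer genes, at 1.68 CPM per kb in the female table.

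The promoter regions with the highest counts per base belonged to predicted genes. Gm10800 had 1595 CPM per kb in the female table, with 2349, 1327 and 1322 CPM in the EE libraries and 2041, 1698 and 1377 in the SH libraries. Gm10801 followed at 275, Gm13532 at 142 and Gm13340 at 136 CPM per kb. The male region at Gm13340 had 154 and Gm13532 59.4 CPM per kb. Whether reads from near-identical copies were assigned to these regions was not tested. Their log2 fold changes between EE and SH ran from -0.25 to 0.07 over both tables, and none was called.

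Few single promoters differed between the housing groups. Differences were tested with edgeR's quasi-likelihood test over all regions of a table with Benjamini-Hochberg adjustment, and called at an adjusted p under 0.05. Of the tested female promoter regions 1 of 20983 was called, higher in EE, where 0.0473% of all tested regions were called (0.0346% higher and 0.0127% lower in EE). Of the male promoter regions 0 of 16801 were called, and 0% of all regions were. DESeq2 called 3 female and 0 male promoter regions, and the share of all regions that it called is not given here. At an unadjusted p under 0.05 there were 1124 female promoter regions (5.36%), 326 higher and 798 lower in EE, beside 8.01% of all regions (4.53% higher and 3.48% lower). The male count was 508 (3.02%), 230 higher and 278 lower, beside 4.54% of all regions (2.62% higher and 1.92% lower). The background includes the promoter regions, and the shares were not tested against each other.

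The changes that were measured were small. Log2 fold changes, from the 5th to the 95th percentile, ran from -0.39 to 0.30 in the female promoter regions and from -0.19 to 0.20 in the male. A log2 fold change beyond 0.5 in either direction was found for 789 female (3.76%) and 65 male (0.387%) promoter regions. The EE and SH libraries did not overlap at 642 female promoter regions in the direction of EE and 1508 in the direction of SH, 10.2% in all, beside 12.8% of all regions (6.46% and 6.3% in the 2 directions). Male groups did not overlap at 6 promoter regions in the direction of EE and 11 in the direction of SH (0.101%), beside 0.123% of all regions (0.0638% and 0.0596%).

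The bulk of promoters was slightly lower in EE than other regions, by no more than about the spread between libraries. The median log2 fold change was -0.06 in the female promoter regions, of which 34.8% lay above 0, and 0.00 in all other regions. The male median was -0.02, with 40.3% above 0, and again 0.00 elsewhere. Intergenic regions had medians of 0.07 (61.0% above 0) and 0.02, and regions inside genes -0.03 and -0.00. Broad regions, many of which also hold gene starts, had -0.07 and -0.03. Among covered RefSeq windows the CpG-rich ones had -0.07 (25.0% above 0) and the remaining ones -0.05 (36.2%) in the female table, and -0.04 (28.4%) and -0.02 (40.3%) in the male table. None of the regions at covered windows was called, and no test of the difference between the classes was made.

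The share of counts in promoter regions gives a related quantity for each library, in which regions with many counts weigh more. The female shares were 26.0%, 26.2% and 26.6% in the EE libraries (26.2% ± 0.343, SD, n = 3) and 25.9%, 28.1% and 27.1% in the SH libraries (27.0% ± 1.14, SD, n = 3). SH replicate 2, which held the highest share, was also the shallowest library. In the male table the EE libraries ran from 14.5% to 16.1% with a median of 15.2% (15.2% ± 0.591, SD, n = 6) and the SH libraries from 14.7% to 15.8% with a median of 15.4% (15.4% ± 0.377, SD, n = 7). The groups overlapped in both tables. So did the median deviation of promoter regions from their mean over libraries: -0.03, -0.05 and 0.00 on the log2 scale in female EE, and -0.05, 0.10 and 0.05 in female SH. The pooled SD within groups, 0.0560 in the female and 0.0588 in the male table, was about as large as the female median difference and larger than the male one. Without SH replicate 2 the female median rose from -0.06 to -0.02, and without SH replicate 1 it was -0.10.

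With scaling factors from promoter regions alone, the medians became -0.00 in both tables by construction, and the split at an unadjusted p under 0.05 turned. It became 546 higher and 347 lower in the female table (61.1% higher, where 29.0% were before) and 295 higher and 152 lower in the male table (66.0%, where 45.3% were before). The medians of the other regions then stood at 0.06 and 0.02, so promoter regions stayed below the other regions. Scaling by the total count gave 371 higher and 676 lower in the female table (35.4%) and 280 higher and 208 lower in the male table (57.4%). The medians stayed below 0 there, at -0.04 and -0.01. The split at the unadjusted threshold therefore moved with the scaling, while calls stayed at 2 or fewer in the female table and 0 in the male table under these 2 scalings.

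**Figure D3:**
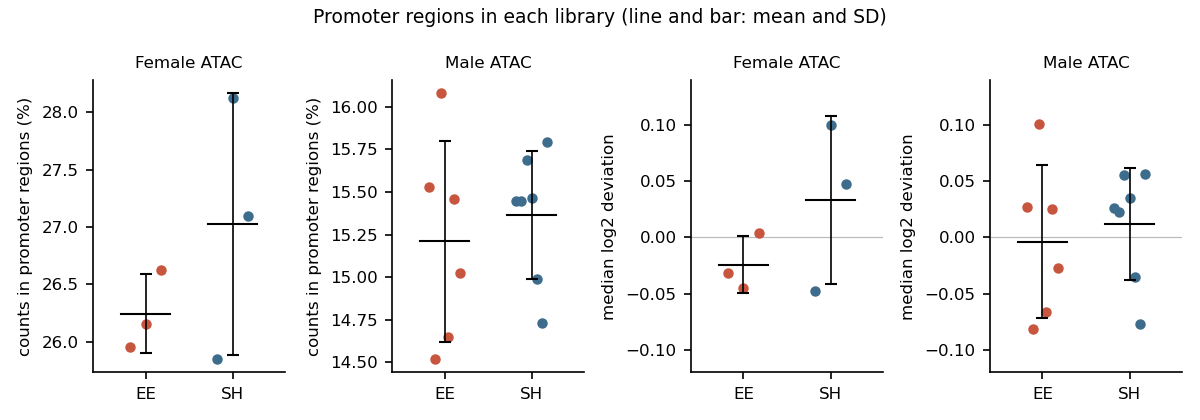
Share of each library's counts in promoter regions (left, %) and median log2 deviation of promoter regions from their mean over libraries (right), for EE (red) and SH (blue) in the female and male tables. Points are libraries, lines means and bars SD. The groups overlap in all 4 panels, with SH replicate 2 of the female table highest at 28.1%.

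The promoter region called in the female table lay at Trbv27, a variable segment of the T cell receptor beta locus (chr6:41256135-41257633, mm10, 670 bases from the gene start at 41258303). It had 15.5, 14.2 and 16.2 CPM in the EE libraries and 10.7, 10.1 and 8.11 in the SH libraries. All EE libraries lay above all SH libraries, with a log2 fold change of 0.67 ± 0.14 (SE) and an adjusted p of 0.0282 by edgeR's quasi-likelihood test. The call was lost, with adjusted p from 0.0552 to 0.299, when any library other than SH replicate 1 was left out, and the log2 fold change ran from 0.56 to 0.76. The male promoter region assigned to the same gene gave -0.02 ± 0.09. The gene's RNA was too low to be tested.

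No promoter region was called lower in EE by edgeR's quasi-likelihood test, and DESeq2 called 1, at Lmna. The 3 with the smallest p that carry a named gene were at Mir125b-1, Lmna and Rsph14. The region near Mir125b-1 (chr9:41581234-41581654, gene start at 41581926), which encodes a microRNA abundant in neurons, lay closer still to the predicted gene Gm28119, at 254 bases. It had 2.07, 2.48 and 2.07 CPM in EE and 4.50, 4.85 and 3.97 in SH, a log2 fold change of -1.004 ± 0.23 (SE). Its adjusted p was 0.0583 by edgeR's quasi-likelihood test. The groups did not overlap, and the male value was -0.05 ± 0.08. The mature product is given with its seed, bases 2 to 8, in capitals.
mmu-miR-125b-5p: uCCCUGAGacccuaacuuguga

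Lmna encodes the nuclear lamins A and C. Its promoter region spanned the start (chr3:88509407-88510717), with 13.996, 13.6 and 15.9 CPM in EE and 19.1, 23.3 and 20.5 in SH. The groups did not overlap, the log2 fold change was -0.53 ± 0.12 (SE), and the adjusted p was 0.0635 by edgeR's quasi-likelihood test and 0.0437 by DESeq2. Lmna RNA differed by 0.06 ± 0.08 in females, and the male promoter value was -0.04 ± 0.12. Rsph14, a radial spoke protein of cilia, had a region 537 bases from its start (chr10:75033123-75033500) with 1.81, 1.161 and 1.66 CPM in EE and 3.67, 2.96 and 3.403 in SH. Again the groups did not overlap, with -1.12 ± 0.26 (SE), an adjusted p of 0.0668 by edgeR's quasi-likelihood test, and -0.11 ± 0.09 in males.

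In the male table the smallest adjusted p of a named promoter region was 0.801 by edgeR's quasi-likelihood test. It belonged to Hrasls5, an enzyme of phospholipid metabolism, whose region spanned the start (chr19:7612022-7612793). The EE libraries ran from 2.33 to 2.98 CPM with a median of 2.65, and the SH libraries from 3.33 to 3.98 with a median of 3.68. The groups did not overlap. The log2 fold change was -0.46 ± 0.11 (SE), and the female table gave -0.63 ± 0.23. Magohb, a subunit of the exon junction complex, was the one of the 3 highest that spanned a start (chr6:131292208-131294007), with EE libraries from 10.3 to 13.4 CPM (median 11.5) and SH libraries from 7.26 to 11.8 (median 9.05). The groups overlapped, and the log2 fold change was 0.32 ± 0.09 (SE). Magohb RNA differed by -0.43 ± 0.19 and was not called (adjusted p 0.588 by edgeR's quasi-likelihood test). Nrip2, a nuclear receptor cofactor, had 0.55 ± 0.14 at 926 bases from its start, and C1qtnf9, a secreted C1q relative, 0.48 ± 0.13 at 996 bases, near the limit of the rule.

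The zinc finger genes Zfp966 and Zfp967, both on chromosome 2, were the others of the 3 lowest. Zfp966 had EE libraries from 1.04 to 2.79 CPM (median 1.48) and SH libraries from 1.92 to 3.45 (median 2.91), a log2 fold change of -0.71 ± 0.18 (SE). Zfp967 had 1.21 to 2.32 (median 1.39) against 1.399 to 4.23 (median 2.78), or -0.80 ± 0.20. The groups overlapped at both. The female table gave -0.66 ± 0.20 at Zfp966 and 0.13 ± 0.20 at Zfp967. The RefSeq promoter windows of these genes are identical over all 300 bases, so the counts of both regions may come from either copy and both values are uncertain. The 200 bases before each start (Zfp966, chr2:175931101-175931300, minus strand, and Zfp967, chr2:176520804-176521003, plus strand) are shown once, with no capitals because there are 0 differences.
Zfp966 and Zfp967: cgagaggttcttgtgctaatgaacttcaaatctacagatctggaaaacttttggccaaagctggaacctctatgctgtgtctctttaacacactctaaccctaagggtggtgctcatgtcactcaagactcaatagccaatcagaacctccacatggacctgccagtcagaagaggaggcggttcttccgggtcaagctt

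Such copies are rare among promoters. Of 31365 autosomal windows at distinct positions, 256 (0.816%) had an identical window elsewhere, and 32 of those overlapped a promoter region in the female table and 23 in the male table.

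**Figure D4:**
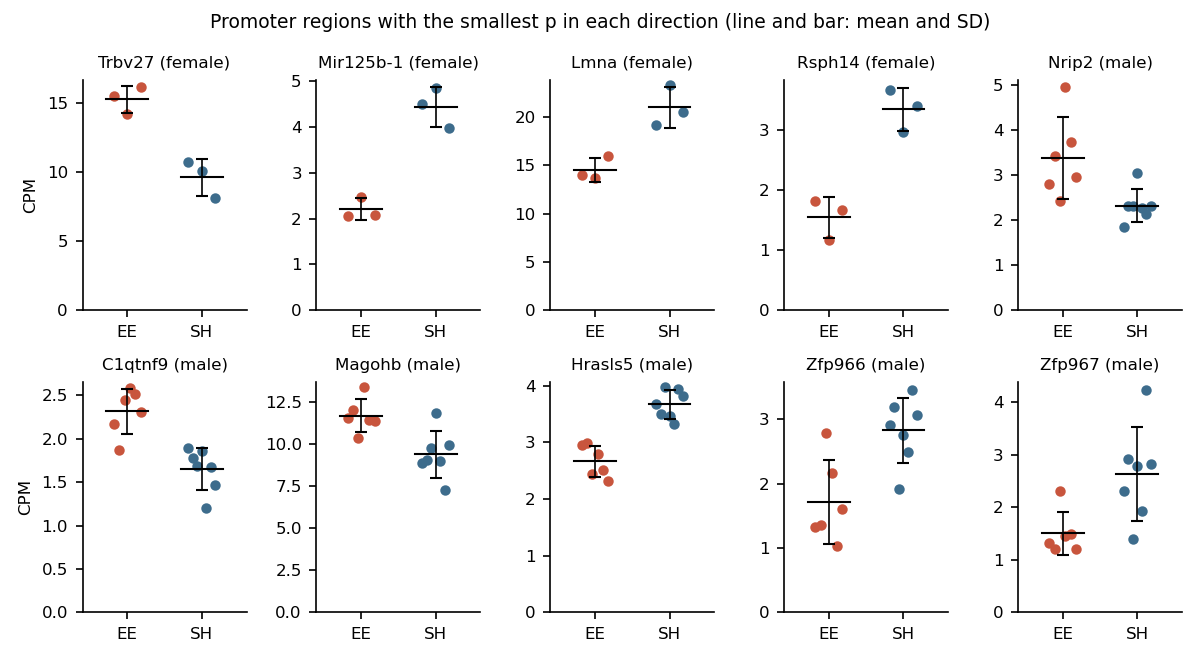
CPM of the most changed named promoter regions by p, for EE (red) and SH (blue). Points are libraries, lines means and bars SD, and each vertical axis starts at 0. The 4 female regions and Hrasls5 in the male table have groups that do not overlap; the other 5 male regions overlap.

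Among 21 gene lists of neuronal, glial and cellular functions, 0 promoter regions were called in either table. The immediate early genes had the lowest median of the female lists, -0.19, where all promoter regions had -0.06. Of their 13 promoter regions 11 lay below 0, and 4 were lower in EE at an unadjusted p under 0.05, beside 3.48% of all regions. These 4 were Nr4a1, an orphan nuclear receptor (-0.36 ± 0.12, SE), Btg2, an antiproliferative factor (-0.31 ± 0.11), Fos (-0.29 ± 0.11) and Egr3, a zinc finger factor (-0.28 ± 0.11). Nr4a1 had 30.4, 26.6 and 22.6 CPM in the EE libraries and 27.8, 34.9 and 39.6 in the SH libraries, which overlapped. Its adjusted p was 0.291 by edgeR's quasi-likelihood test. Nr4a1 RNA differed by 0.62 ± 0.32 in the other direction and was not called (adjusted p 0.648 by the same test). The list moved with single libraries: without SH replicate 1 its median was -0.30, with 9 of the 13 under 0.05 and Nr4a1 called (-0.49, adjusted p 0.0475 by edgeR's quasi-likelihood test). Without SH replicate 3 it was -0.14, with 1 under 0.05. With scaling on promoter regions alone the median was -0.13. Only 3 immediate early genes had a male promoter region, and their median was 0.05.

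Clock and glucocorticoid-responsive genes came next in the female table. The 15 clock promoter regions had a median of -0.15, with 12 below 0, where 34.8% of all promoter regions lay above 0. Of them 3 were lower in EE at an unadjusted p under 0.05, beside 3.48% of all regions. Per2, a repressor of the clock loop, had 44.4, 49.0 and 48.5 CPM in EE and 53.4, 59.9 and 59.7 in SH, or -0.28 ± 0.10 (SE). The groups did not overlap, and the adjusted p was 0.335 by edgeR's quasi-likelihood test. The clock median was -0.07 without SH replicate 2. The 12 glucocorticoid-responsive regions had a median of -0.15, with 11 below 0. Fkbp5, a co-chaperone of the glucocorticoid receptor, had 4.22, 3.06 and 4.37 CPM in EE and 5.75, 6.03 and 6.54 in SH, or -0.65 ± 0.20. Its groups did not overlap either, its adjusted p was 0.226 by edgeR's quasi-likelihood test, and the male table gave 0.12 ± 0.13. The male glucocorticoid-responsive list had a median of 0.09 over 6 regions. The glucocorticoid-responsive median in females was -0.28 without SH replicate 1 and -0.08 without SH replicate 2.

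Synaptic and channel genes also had negative medians in females, and their difference from the other promoters was not tested. Postsynaptic density genes had a female median of -0.12 over 23 regions and voltage-gated channel genes -0.11 over 26. In each list 2 were lower and 0 higher at an unadjusted p under 0.05, beside 3.48% and 4.53% of all regions. Kcnd3, a potassium channel of the A-type current, had 13.8, 14.2 and 15.4 CPM in EE and 20.8, 19.2 and 19.5 in SH, with no overlap. Its log2 fold change was -0.46 ± 0.12 (SE), the smallest p of any listed gene in the female table, with an adjusted p of 0.145 by edgeR's quasi-likelihood test. Grin2a, an NMDA receptor subunit, had -0.33 ± 0.11. Presynaptic genes had a median of -0.09, with 23 of 26 regions below 0. The male medians of the 3 lists were -0.04, -0.02 and -0.05 in the order postsynaptic, channel and presynaptic. At an unadjusted p under 0.05 there were 0 regions, beside 4.54% of all male regions.

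Most promoters of housekeeping functions also lay below 0 in females, where 34.8% of all promoter regions lay above 0. No difference from the bulk was tested. Of 58 cytosolic ribosomal protein promoters 51 lay below 0 in the female table, with a median of -0.08. Of 20 sterol synthesis promoters 18 did, with a median of -0.10, and of 23 heat shock promoters 21, with a median of -0.06. Respiratory chain promoters were nearer 0, with 42 of 56 below 0 and a median of -0.04, where all promoter regions had -0.06. Of 51 chromatin regulator promoters 39 lay below 0, with a median of -0.06. Rps3, a protein of the small ribosomal subunit, had -0.32 ± 0.13 (SE), and Lss, whose sequence is shown above, -0.18 ± 0.10. Dnajb5, a co-chaperone, had 4.64, 4.84 and 3.88 CPM in EE and 5.17, 6.03 and 8.73 in SH, or -0.58 ± 0.19. The male medians of the ribosomal, sterol and heat shock lists were -0.04, -0.03 and -0.03. Those of the respiratory chain and chromatin regulator lists were -0.05 and -0.04.

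The upper layer excitatory and GABAergic lists had positive medians in females, as did the 2 microglial regions. Upper layer excitatory genes had 0.08, with 11 of 13 regions above 0 and 0 at an unadjusted p under 0.05, beside 8.01% of all regions. Without EE replicate 2 that median was 0.01, with 7 of 13 above 0. The male upper layer list had a median of -0.02 over 7 regions, 3 of them above 0. Cartpt had 2.78, 1.94 and 2.41 CPM in EE and 1.63, 1.45 and 2.09 in SH, or 0.45 ± 0.28 (SE) with overlapping groups. The male Cartpt promoter region gave -0.05 ± 0.10. Female Cartpt RNA, at 1.61 CPM in EE and 0.824 in SH, differed by 0.97 ± 0.26. That was not called (adjusted p 0.191 by edgeR's quasi-likelihood test). GABAergic interneuron genes had a median of 0.04 over 22 regions. Deep layer genes had -0.03 over 17, where Etv1, an ETS factor of layer 5 neurons, had 15.8, 17.7 and 14.4 CPM in EE and 13.6, 13.03 and 11.6 in SH, or 0.32 ± 0.13 without overlap. In males the GABAergic list had 0.03, and Adarb2, an RNA-editing enzyme relative of interneurons, 0.18 ± 0.08. Tle4, a corepressor of deep layer neurons, had the smallest p of the male listed genes. Its EE libraries ran from 41.1 to 48.4 CPM (median 45.4) and its SH libraries from 46.3 to 57.7 (median 51.8), or -0.19 ± 0.06, against -0.03 ± 0.11 in females.

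Promoters of glial genes gave 0 called regions in either table. The female astrocyte list had a median of -0.06 over 15 regions, 5 of them above 0, and the oligodendrocyte list -0.02 over 9, with 4 above 0. The male lists had 0.06 over 13, with 10 above 0, and 0.01 over 10, with 6 above 0. Bmpr1b, a BMP receptor, had the smallest p of the female astrocyte list, with 9.11, 10.8 and 8.33 CPM in EE and 8.25, 7.97 and 6.81 in SH. Its groups did not overlap, with a log2 fold change of 0.29 ± 0.16 (SE), 0.12 ± 0.09 in males and 0.53 ± 0.11 in female RNA. Neither the promoter region nor the RNA was called (RNA adjusted p 0.0996 by edgeR's quasi-likelihood test). Gfap, an astrocyte filament protein, had 2.49, 2.05 and 2.71 CPM in female EE and 3.08, 4.36 and 2.44 in SH, which overlapped. Mbp had -0.24 ± 0.12 (SE) in females and lay in a broad region in males. Their part in the other results was not tested.

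**Figure D5:**
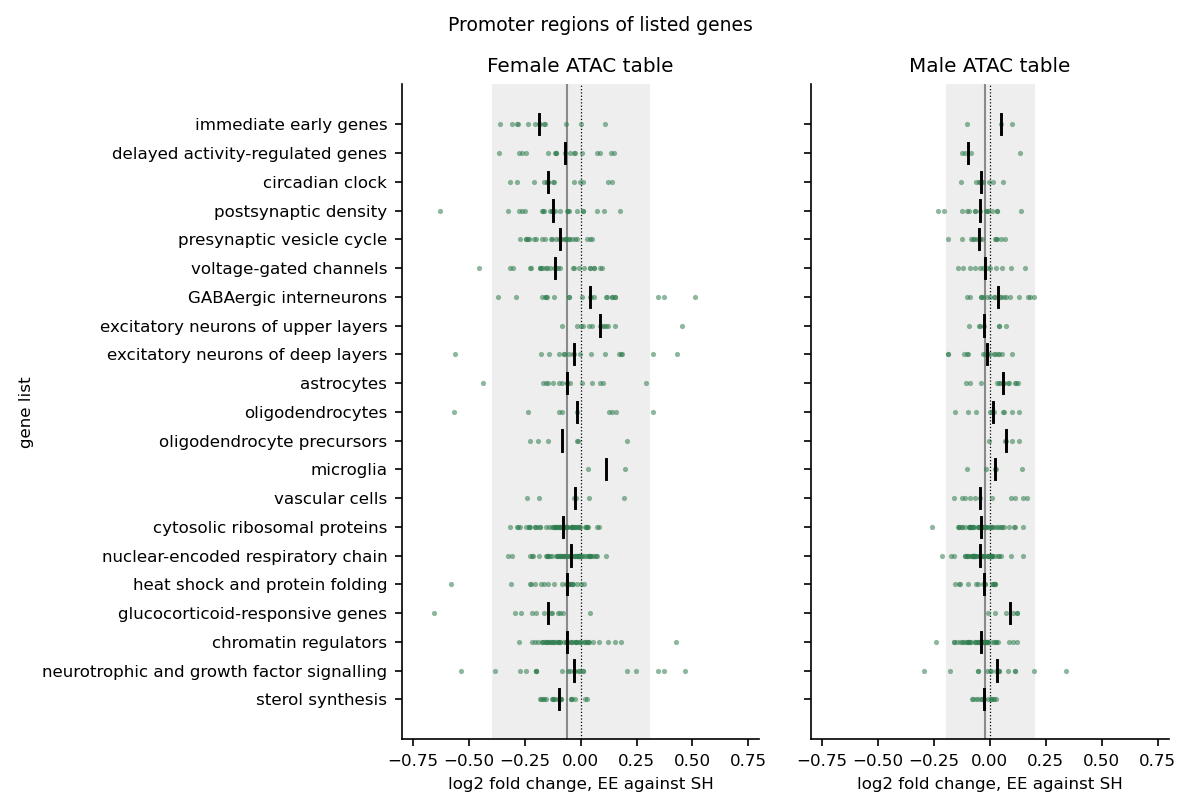
Log2 fold change of EE against SH at the promoter regions of 21 gene lists (rows) in the female and male tables. Points are promoter regions, black ticks list medians, the grey line the median of all promoter regions (-0.06 and -0.02) and the grey band their 5th to 95th percentile. Immediate early genes have the lowest female median, -0.19, and no point is a called region.

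The difference between the tables was tested for promoters present in both. Regions of the tables were joined where each covered at least 50% of the other, which gave 49878 joined regions, 7852 of them promoter regions in both tables. The sex by housing interaction was called at 0 of these by edgeR's quasi-likelihood test, where 0% of all joined regions were called. DESeq2 called it at 1 of these, and its share over all joined regions is not given. At an unadjusted p under 0.05 there were 239 (3.04%), beside 7.19% of all joined regions. The log2 fold changes of the 2 tables, which share no library, had a Pearson correlation of 0.10 and a Spearman correlation of 0.08 across these regions, and 60.7% had the same sign. Both tables have medians below 0, and regions are not independent, so these values describe and are not tested.

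The smallest interaction p belonged to Cfap100, a protein of cilia (chr6:90429638-90431180 in the female table). Its log2 fold change was -0.40 ± 0.12 (SE) in the female and 0.09 ± 0.06 in the male table, a difference of -0.50 ± 0.11 with an adjusted p of 0.309 by edgeR's quasi-likelihood test and 0.0367 by DESeq2. Next was Mir6343 (chr1:76509279-76509935), with 0.56 ± 0.14 in the female and -0.11 ± 0.10 in the male table, and a difference of 0.67 ± 0.17. Its mature sequence, with the seed in capitals, shares no seed with that of Mir125b-1.
mmu-miR-6343: uGUAAAGUaggagcugacugac

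Of the 6 male genes called in nuclear RNA by edgeR, 2 had a promoter region, where 9173 of all 14597 tested genes had a tested one. Of all 16801 male promoter regions 0 were called. In females 0 of 14587 tested genes were called in RNA (0%) by edgeR's quasi-likelihood test, and 8.67% had an unadjusted p under 0.05. Among female genes with a promoter region DESeq2 called 95, and edgeR without a filter on low counts 119. In males 6 of 14597 genes (0.0411%) were called, and 2 of them had a promoter region; 8.03% had an unadjusted p under 0.05. DESeq2 called 22 male genes with a promoter region, and edgeR without the filter 65. For these alternative fits the share over all tested genes is not given, so the counts cannot be set against other genes. Arntl RNA was higher in EE, 141 against 121 CPM, by 0.22 ± 0.04 on the log2 scale (SE) with an adjusted p of 0.0316 by the same edgeR test. Its promoter region, which spanned the start, had EE libraries from 18.8 to 26.8 CPM (median 24.6) and SH libraries from 20.6 to 25.2 (median 24.3), a log2 fold change of -0.00 ± 0.07. Robo3, an axon guidance receptor, was higher in RNA by 0.45 ± 0.07, while its region, 992 bases from the start, had 0.11 ± 0.19. Of the other 4, Lypd1 and Trps1 had a broad region at the start, Vmn2r85 had none and Pcdh11x is X-linked.

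Over all genes tested in both assays the fold changes of RNA and promoter had correlations near 0. Among 11201 female genes 48.5% had the same sign, with a Spearman correlation of -0.04, and among 9173 male genes 50.7%, with 0.01. The 506 female genes with higher RNA at an unadjusted p under 0.05 had a median promoter log2 fold change of -0.07, and the 462 with lower RNA -0.06, where all had -0.06. In males the 308 genes with higher and the 353 with lower RNA both had a median of -0.03, as did all genes. Correlations are across genes, which are not independent replicates, and the RNA and ATAC libraries are not paired in the labels.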

How the data were processed

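ATAC and nuclear RNA values are raw read counts per region or gene, deposited by the authors in 1 table per assay and sex. The submitters' processing notes name STAR 2.5.4, SAMtools 1.3.1, bedtools, MACS2 2.1.1, DiffBind 3.2.2, DESeq2 1.16.1, edgeR and the build mm10, with no order or role. Symbols were found for 53274 of 53379 gene IDs.

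The fits were run table by table in R 4.3.3, with edgeR 4.0.16 (TMM scaling, filterByExpr, robust quasi-likelihood test of EE against SH), with Benjamini-Hochberg adjustment over all regions or genes and a threshold of 0.05. The interaction was fitted over joined regions. CPM in comparisons used TMM-scaled library sizes, and levels the total counts. Scripts were tested on simulated data. Alternatives were DESeq2 1.42.0, limma 3.58.1, other scalings, filters, blocks and leaving out each library.

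Named regions were, per table, the called ones or the 3 with the smallest p in a direction (predicted Gm and Rik genes aside), the smallest p of each list, the 5 densest regions, cell type markers and genes called in RNA. Other list members were named after their values were seen. Members and lists were chosen with earlier results of these data known. The smallest p of 1 list is not reported here.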

Additional observations from a re-analysis of the deposited data

Results flagged for a closer look

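In 60 groups of 4 to 10 libraries, 5 had 1 library far from the others by Dixon's criterion, which chance gives in about 1 group in 20. All 5 were in the male table. The female ATAC groups, of 3 libraries each, were not examined in this way. At Nrip2 the highest SH library had 3.06 CPM. At Zfp967 the highest EE library had 2.32 CPM, and this gene shares an identical promoter window with Zfp966. At Olig1, an oligodendrocyte transcription factor, the lowest SH library had 7.36 CPM. At Dnaja2, a co-chaperone, the highest EE library had 20.9 CPM, and at Stard4 the highest EE library had 29.3 CPM.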

How the results depend on the processing

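Of 1115 recomputed values of 60 single-region or list results, 1083 kept their direction and their side of the threshold or moved by less than the spread between libraries, 10 moved, 6 lost and 4 gained a call, and 12 reversed. The count of female promoter calls was 1 and became 3 with DESeq2, 2 with scaling on promoter regions alone, 0 with the replicate block, 0 for regions that span a gene start, 3 with an edge within 2 kb, and 0 to 16 when a library was left out. Without EE replicate 1 it was 11, none shared with the full table, and without SH replicate 1 it was 16, of which Trbv27 was shared. The female median was -0.0017 with scaling on promoter regions alone. The share of counts in promoter regions was 26.8% in female EE over autosomal counts. Over regions that span a start it was 20.8% in female EE, 21.4% in female SH, 13.1% in male EE and 13.3% in male SH, because fewer regions are counted. Genes with a promoter region called in RNA were 0 in females and became 95 with DESeq2, 119 with no filter, 68 with the replicate block and 1 with the total count. They were 2 in males and became 22, 65 and 1 with DESeq2, no filter and the replicate block. The interaction had 1 call with DESeq2. The share of all tested regions or genes that was called is given for none of these alternatives. Where no construction of the alternative is named, the cause was not tested.

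Replicate numbers did not pair the libraries: same-numbered EE and SH libraries had correlations of deviations of -0.08, 0.07 and 0.03 in the female table and from -0.14 to 0.23 in the male table. The replicate block raised the adjusted p of Trbv27 to 0.0819 (edgeR) and left 0 male calls.

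Reversals concerned 3 promoter regions. Irf8 in the female table, 0.20 in all libraries, ran from -0.0066 (without SH replicate 1) to 0.45. Arntl in the male table, -0.00 in all libraries, was 0.014 with scaling on promoter regions alone, 0.027 with loess offsets and 0.0085 with the total count, and ran from -0.041 to 0.058 when a library was left out. Robo3 in the male table, 0.11 in all libraries, ran from -0.012 (without EE replicate 4) to 0.21. The standard error at the median promoter region was 0.173 in the female table, with 3 libraries a group, and 0.109 in the male table. Changes several times their standard error could also go uncalled. Mir125b-1 in females, at -1.004 ± 0.23 (SE), had an adjusted p of 0.0583 by edgeR's quasi-likelihood test. Hrasls5 in males, at -0.46 ± 0.11, had 0.801 by the same test.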
